A study of Mus musculus with 4 samples.

Results

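Genes for 10 surface and signalling markers of long-term hematopoietic stem cells (HSCs) were measured in SRC-3 knockout (KO) and wild-type (WT) bone marrow: Procr, Tek, Robo4, Esam, Clec1a, Thy1, Pdzk1ip1, Fgd5, Ctnnal1 and Ptpn21. They were chosen by symbol, and each was represented by 1 probe set that the platform annotation gives to that gene alone, so they are 10 of 22180 genes and 10 of 41345 probe sets. The 4 arrays came from 2 KO and 2 WT samples of lineage-negative, Sca1-positive, c-Kit-positive (LSK) cells, sorted by flow cytometry after red cell lysis from male mice aged 8 weeks. SRC-3, the product of Ncoa3, is a coactivator that nuclear receptors and other transcription factors recruit. The sources used here give neither the part of Ncoa3 that was removed, nor whether the deletion reached only blood cells, nor the number of mice in a sample. The labels call the samples biological replicates, but should both samples of a genotype share mice, the p-values would cover technical spread alone.

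LSK cells hold the long-term HSCs together with a larger number of multipotent progenitors, so an LSK sample reports a stem cell gene through a minority of its cells. Several of the 10 genes are shared between HSCs and endothelium, which arise from a common embryonic source, and are used to tell HSCs from the progenitors beside them. Procr, Tek, Robo4, Esam, Clec1a, Thy1 and Pdzk1ip1 encode proteins of the cell surface or membrane, and Fgd5, Ctnnal1 and Ptpn21 encode proteins that act inside the cell on its skeleton and signals. In bulk RNA fewer cells of a type and less RNA per cell cannot be told apart.

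Values are log2 expression per probe set as the authors deposited them, and differences are KO minus WT on that scale. In the KO samples Ncoa3 was at 5.35 and 5.09, against 7.76 and 7.05 in the WT samples, a difference of -2.19 ± 0.27 (SE, limma adjusted p = 0.038). Across all genes the 2 KO arrays correlated at 0.992 and the 2 WT arrays at 0.986, so the WT arrays differed more from each other. That spread enters most of the values given here. The median gene had a mean of 4.32 over the 4 arrays. A probe set's brightness also depends on its probes, so a level is read against the same probe set in other samples. Sums over marker genes weigh bright probe sets more, and a mean below the median gene says only that a probe set was dim.

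All 10 genes had a lower mean in KO than in WT, where 50.2% of all genes did, but none of the 10 passed the test over all genes. The lower means of Tek, Clec1a, Thy1 and Ctnnal1 turned to higher ones under another scaling (median centring or quantile normalization). Robo4, Esam, Fgd5 and Ptpn21 had the larger differences, between -0.95 and -0.61, or 1.53-fold to 1.93-fold lower in KO. Procr was at -0.41, and the other 5 genes were between -0.20 and -0.01. The median over the 10 genes was -0.30, beside -0.001 over all genes.

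At an adjusted p under 0.05, limma called 0 of the 10 genes, where it called 0.509% of all genes in either direction. At an unadjusted p under 0.05, 4 of the 10 were lower and 0 higher in KO, where 6.93% of all genes were lower and 10.5% were higher. Of the genes with a mean no lower than the median gene's, 9.55% were lower at that p. Both KO arrays lay below both WT arrays for 7 of the 10, where this held for 22.9% of all genes. The genes were proposed with earlier results of these data in view, so these counts are descriptions of the 10 genes and no test of the group. Single arrays moved them. Leaving out an array also changed the share of all genes lower at an unadjusted p under 0.05. The counts without an array are therefore not comparable with the 6.93% above. Without WT replicate 1, 0 of the 10 genes were lower in limma at an unadjusted p under 0.05. Without KO replicate 1 that count was 1 (Ptpn21), without KO replicate 2 it was 1 (Esam), and without WT replicate 2 it was 5. After each array was centred on its median, a step that raised the median difference of all genes to 0.13, the count was 1 (Esam). In that setting 3.46% of all genes were lower at that p. Median centring moves every gene alike, so each gene's distance to the median of all genes stayed as it was. After quantile normalization 9 of the 10 lay below the median of all genes, and without WT replicate 1, 8 did.

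**Figure D1:**
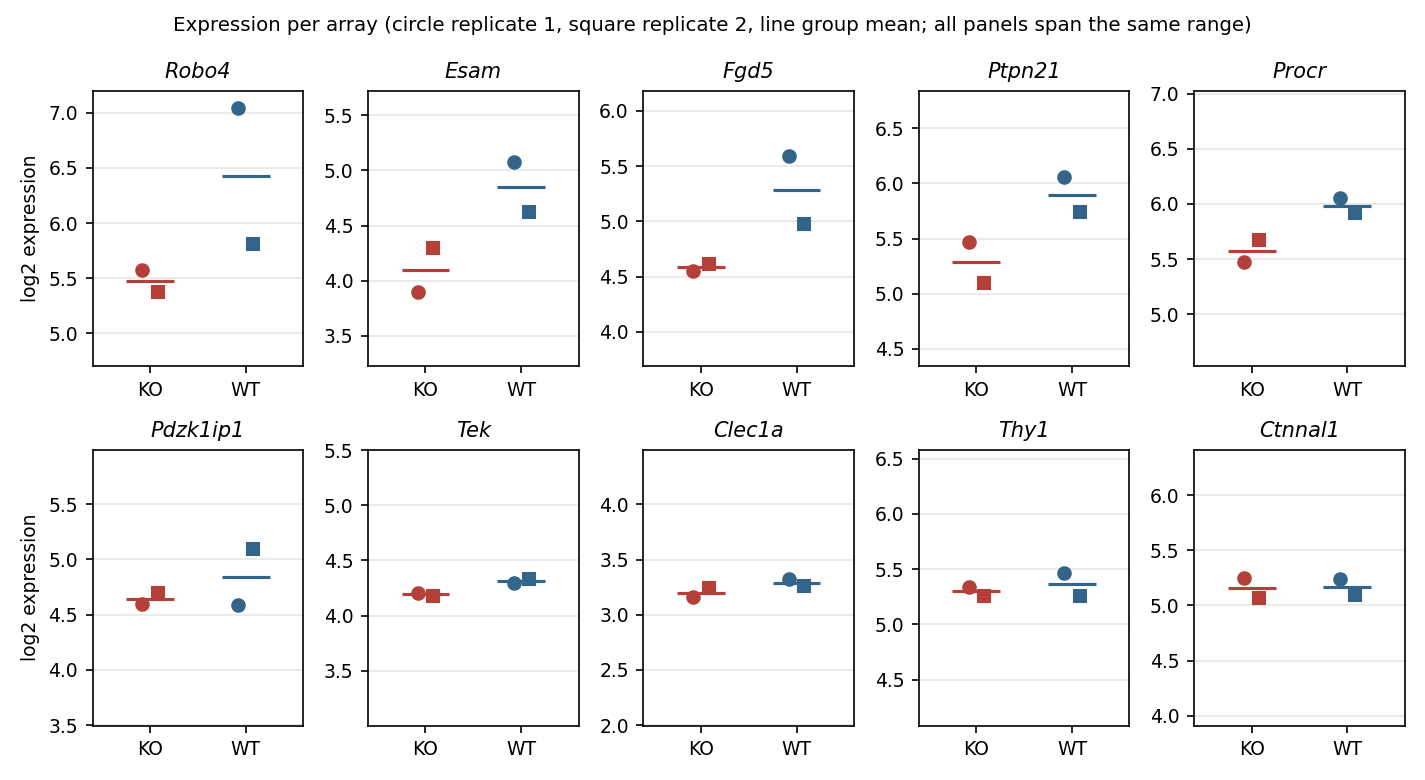
Log2 expression of each of the 10 genes on each array, KO left of WT, in order of the difference, with circles for replicate 1, squares for replicate 2 and lines for the group means; every panel spans the same range of log2 values. Both KO arrays lie below both WT arrays for 7 genes, by only 0.09 for Tek and 0.02 for Clec1a. WT replicate 1 is the highest point for Robo4, at 7.04.

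Promoter windows, from 250 bases before to 50 bases after a gene's start, were matched by symbol for 7 of the 10 genes in a RefSeq table of build GRCm38.p6, with 8 windows in all because Ptpn21 has 2. Nuclear receptors, the partners from which SRC-3 was first known, bind the half-site AGGTCA. It was found, on either strand, in 3 of the 8 windows, those of Procr, Robo4 and Ptpn21, where 16.3% of all 32851 windows hold it. These 3 windows are shown because they hold the half-site. Capitals mark the half-site, which reads TGACCT where it lies on the other strand. The Procr window is chr2:155750967-155751266 on the plus strand, the Robo4 window chr9:37401722-37402021 on the plus strand, and the Ptpn21 window chr12:98737356-98737655 on the minus strand.
Procr: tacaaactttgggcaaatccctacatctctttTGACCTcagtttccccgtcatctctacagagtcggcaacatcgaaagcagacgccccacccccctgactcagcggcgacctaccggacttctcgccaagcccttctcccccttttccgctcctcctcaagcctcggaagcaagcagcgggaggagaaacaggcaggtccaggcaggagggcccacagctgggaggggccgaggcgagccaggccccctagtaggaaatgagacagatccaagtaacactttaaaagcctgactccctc
Robo4: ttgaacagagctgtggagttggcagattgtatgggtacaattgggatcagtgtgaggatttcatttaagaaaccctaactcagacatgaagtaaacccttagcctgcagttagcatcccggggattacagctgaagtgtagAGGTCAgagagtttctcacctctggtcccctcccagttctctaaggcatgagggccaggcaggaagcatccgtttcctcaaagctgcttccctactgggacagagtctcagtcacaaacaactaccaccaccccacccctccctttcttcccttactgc
Ptpn21: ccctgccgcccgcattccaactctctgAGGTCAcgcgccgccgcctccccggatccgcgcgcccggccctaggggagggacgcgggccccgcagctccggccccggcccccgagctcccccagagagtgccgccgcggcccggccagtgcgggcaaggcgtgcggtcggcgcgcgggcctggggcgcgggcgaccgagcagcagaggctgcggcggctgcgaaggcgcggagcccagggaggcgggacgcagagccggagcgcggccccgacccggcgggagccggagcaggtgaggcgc
The first base of the match is base 33 of the Procr window, base 142 of the Robo4 window and base 28 of the Ptpn21 window. Other motifs of factors active in HSCs were searched in the same way on both strands. The ETS core AGGAAG was in 2 of the 8 windows (Fgd5 and Robo4) and in 35.4% of all windows. The GATA motif AGATAA was in 1 (Tek) and in 11.2% of all, the RUNX motif TGTGGT in 1 (Ptpn21, the window not shown) and in 16.8% of all. The E-box CAGCTG was in 3 (Procr, Robo4 and Pdzk1ip1) and in 16.3% of all. In these 8 windows 0 matches overlapped a match of another of the 5 motifs. The motifs were picked after the expression values and these windows had been seen, and a match of 6 letters describes the sequence only. GC content was 58.3% in the Procr window, 50.3% in the Robo4 window and 81.3% in the Ptpn21 window shown, beside a median of 52.7% over all windows.

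Procr encodes the endothelial protein C receptor, the surface protein by which HSCs of mouse marrow are often gated. It was at 5.47 and 5.67 on the KO arrays, against 6.05 and 5.91 on the WT arrays. The groups did not overlap, and the gap between them was 0.24 or more on every pairing of a KO with a WT array. The difference was -0.41 ± 0.18 (SE, 95% interval -0.85 to 0.03, limma unadjusted p = 0.062, adjusted p = 0.32). With each array left out in turn it ran from -0.51 to -0.31. Among 7 measured genes of protein C, thrombin and their receptors, limma called 0 over all genes and 0 at an unadjusted p under 0.05. Their median was -0.01, which turned positive under both other scalings, where 2 genes were higher at that p. Without WT replicate 1, 1 was lower. Thbd, for the thrombin receptor thrombomodulin, which works beside the protein C receptor, was at 5.23 and 5.31 in KO and 5.48 and 5.78 in WT (adjusted p = 0.40). F2, for prothrombin, a product of the liver, was 0.32 ± 0.16 higher (SE, adjusted p = 0.36) at levels below the median gene.

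Tek encodes Tie2, the receptor for angiopoietins, which is known for holding HSCs in quiescence in their niche. It was at 4.21 and 4.17 in KO and at 4.30 and 4.33 in WT. The groups did not overlap, but the difference was small, at -0.12 ± 0.16 (SE, 95% interval -0.51 to 0.27, limma adjusted p = 0.77), and it was 0.01 after quantile normalization. The mean of Tek lay just below that of the median gene. RMA compresses changes of dim probe sets, and its part in the size of this difference was not tested. Its ligand gene Angpt1 had high values on every array, 8.20 and 8.09 in KO against 8.68 and 8.57 in WT. The difference of Angpt1 was -0.48 ± 0.16 (SE, limma unadjusted p = 0.020, adjusted p = 0.20). Tie1, for the partner receptor of Tie2, was at 5.55 and 5.49 in KO and 6.13 and 5.84 in WT, a difference of -0.46 ± 0.19 (SE, unadjusted p = 0.047, adjusted p = 0.28). Of 6 measured genes of angiopoietins, Tie1 and associated signalling, 5 had a lower mean in KO, also under both other scalings. At an unadjusted p under 0.05, 2 of the 6 were lower and 0 higher, and limma called 0 over all genes. After median centring 0 were lower at that p, likewise 0 without KO replicate 1 or KO replicate 2, and 1 without WT replicate 1 or after quantile normalization.

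Robo4 encodes a roundabout receptor of endothelium that in mouse HSCs is known for a role in their localisation to the marrow. It was at 5.58 and 5.38 on the KO arrays, against 7.04 and 5.81 on the WT arrays. WT replicate 1 stood 1.24 above WT replicate 2, the widest gap within a group for any of the 10 genes, while the groups did not overlap. The difference was -0.95 ± 0.39 (SE, 95% interval -1.88 to -0.02, limma unadjusted p = 0.047, adjusted p = 0.28). Without WT replicate 1 it was -0.33, and without WT replicate 2 it was -1.57, so its size rested on WT replicate 1. Of 10 other Slit and Robo pathway genes, 7 had a lower mean in KO, and the median was -0.30. At an unadjusted p under 0.05, 3 were lower and 0 higher, and limma called 0 over all genes. Without WT replicate 1 that count was 0, without KO replicate 1 it was 0, and after median centring it was 1. Srgap1, whose protein acts downstream of Robo receptors, was at 3.67 and 4.05 in KO against 4.71 and 4.45 in WT (adjusted p = 0.16). Robo2 was at 1.83 and 2.22 in KO and 2.42 and 2.70 in WT, near the low end of the array (adjusted p = 0.24).

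Esam encodes an immunoglobulin-type adhesion molecule of endothelial junctions and HSCs. It was at 3.89 and 4.30 in KO, against 5.08 and 4.62 in WT. The groups did not overlap, and their nearest arrays were 0.32 apart. The difference was -0.76 ± 0.24 (SE, 95% interval -1.32 to -0.19), with the smallest p of the 10 genes (limma unadjusted p = 0.017, adjusted p = 0.18). With each array left out in turn it ran from -0.98 to -0.53. Among 7 measured genes for junctional adhesion molecules and their scaffolds, the unadjusted p was under 0.05 for 2 lower and 1 higher gene, and limma called 0 over all genes. Their median was -0.12 as deposited, and 0.01 under each of the other scalings. Without WT replicate 1 or KO replicate 1, 0 were lower at that p, and 1 without WT replicate 2 or KO replicate 2. Tjp1, for the tight junction scaffold ZO-1, was at 4.80 and 4.36 in KO and 3.51 and 3.79 in WT, a difference of 0.94 ± 0.22 in the other direction from Esam (SE, unadjusted p = 0.0043, adjusted p = 0.11). Jam3, for an adhesion molecule known on mouse HSCs, was at 2.32 and 2.63 in KO and 2.96 and 2.94 in WT (adjusted p = 0.24).

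Esam and Robo4 lie close together on chromosome 9, with Robo3 and Msantd2 as the protein-coding genes between them in RefSeq. Robo3, for a receptor of axon guidance, was at 3.54 and 3.48 in KO against 3.99 and 3.78 in WT, a difference of -0.38 ± 0.17 (SE, adjusted p = 0.31). Msantd2 was at 3.73 and 3.83 in KO and 3.96 and 3.50 in WT, so its groups overlapped, with a difference of 0.05 ± 0.21 (SE, adjusted p = 0.94). Vsig2, on the far side of Esam, encodes an immunoglobulin-type membrane protein. It was at 3.72 and 4.22 in KO and 4.73 and 4.79 in WT, a difference of -0.79 ± 0.22 (SE, limma unadjusted p = 0.0091, adjusted p = 0.15). Hepacam, beyond Robo4, had overlapping groups, at 3.36 and 3.05 in KO and 3.20 and 3.09 in WT (adjusted p = 0.91). Robo3 and Vsig2, of the 4 neighbours, had both KO arrays below both WT arrays, where 22.9% of all genes did.

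**Figure D2:**
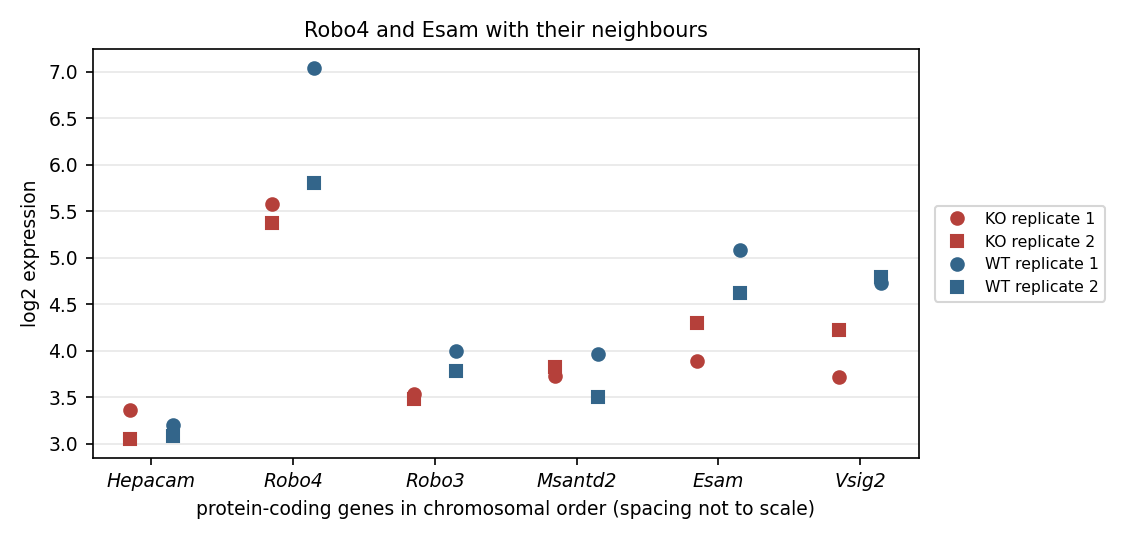
Log2 expression on each array of the 6 protein-coding genes around Robo4 and Esam in chromosomal order, KO left of WT. Robo4, Robo3, Esam and Vsig2 have both KO arrays below both WT arrays, while the groups overlap for Hepacam and Msantd2.

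Clec1a encodes a C-type lectin receptor found on endothelium and dendritic cells. It was at 3.16 and 3.24 in KO and at 3.32 and 3.26 in WT. The arrays of the groups nearest to each other were 0.02 apart, and all values were below the median gene. The difference was -0.09 ± 0.16 (SE, 95% interval -0.47 to 0.29, limma adjusted p = 0.83), and after quantile normalization it was 0.03. The lectin genes around it in the cluster on chromosome 6 had higher means. Of 6 measured, 6 were higher in mean in KO, also under both other scalings, and 4 were higher at an unadjusted p under 0.05, while limma called 0 over all genes. Clec12a, for an inhibitory receptor of myeloid cells, was at 9.38 and 9.38 in KO against 8.23 and 8.49 in WT (difference 1.02 ± 0.16, SE, adjusted p = 0.063). Clec7a, which encodes dectin-1, a receptor of myeloid cells for fungal glucans, was at 7.32 and 7.40 in KO against 6.18 and 6.67 in WT (adjusted p = 0.11). Of 8 neutrophil markers, another myeloid cell's, 0 were lower and 6 had a higher value at an unadjusted p under 0.05, or 3 without KO replicate 1 or without KO replicate 2, with 0 called by limma over all genes. The part of such cells in the lectin values was not tested. Without KO replicate 2 the lectin count was 2.

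Thy1 encodes a small glycoprotein held in the membrane by a lipid anchor, abundant on T cells and low on mouse HSCs. It was at 5.34 and 5.26 in KO and at 5.47 and 5.26 in WT. The groups overlapped at the array level, since KO replicate 2 and WT replicate 2 were both at 5.26. The difference was -0.06 ± 0.18 (SE, 95% interval -0.50 to 0.37, limma adjusted p = 0.90), and without WT replicate 1 it was 0.04. Markers of T cells, in which Thy1 is abundant, were dim. Of 7 measured, 6 had a mean below the median gene, among them Cd3e, Cd3d and Cd3g of the T cell receptor complex, picked for mention as defining genes after their values were seen. Cd4 was at 4.51 and 4.41 in KO and 4.60 and 4.66 in WT (adjusted p = 0.68). Trat1, for an adaptor of the T cell receptor, was at 3.76 and 4.02 in KO and 4.33 and 4.54 in WT, a difference of -0.55 ± 0.19 (SE, limma unadjusted p = 0.025, adjusted p = 0.21). Their summed values, taken back from the log scale, were 77.6 and 82.2 in KO and 80.3 and 97.1 in WT.

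Pdzk1ip1 encodes a small membrane protein, also called MAP17, that binds the scaffold PDZK1. It was at 4.60 and 4.69 in KO and at 4.59 and 5.10 in WT. The groups overlapped, with WT replicate 1 below both KO arrays and WT replicate 2 above all the others. This is the reverse of the order in which the WT arrays stood for Robo4, Fgd5, Esam and Ptpn21. The difference was -0.20 ± 0.22 (SE, 95% interval -0.73 to 0.33, limma adjusted p = 0.71). It was -0.45 without WT replicate 1 and 0.05 without WT replicate 2. Of the genes for PDZK1 and its partners 2 were measured. Slc9a3r1, for the related scaffold NHERF1, was at 7.71 and 7.82 in KO and 8.36 and 7.79 in WT (adjusted p = 0.54). Slc5a2, for the kidney glucose transporter that needs MAP17 as a partner, was 0.16 ± 0.16 higher at levels below the median gene (SE, adjusted p = 0.67).

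Fgd5 encodes an exchange factor that activates the GTPase Cdc42, and its locus is a widely used reporter of mouse HSCs. It was at 4.55 and 4.62 on the KO arrays, against 5.59 and 4.98 on the WT arrays. The KO arrays were nearly equal and the WT arrays 0.62 apart, without overlap between the groups. The difference was -0.70 ± 0.24 (SE, 95% interval -1.28 to -0.13, limma unadjusted p = 0.024, adjusted p = 0.21). Without WT replicate 1 it was -0.40, and without WT replicate 2 it was -1.01. Among the other FGD genes and Cdc42, 6 measured in all, 1 higher and 0 lower had an unadjusted p under 0.05, and limma called 0 over all genes. The 1 was Fgd6, at 4.10 and 3.98 in KO against 3.71 and 3.43 in WT (adjusted p = 0.25). Fgd3 was at 4.82 and 4.93 in KO and 5.30 and 5.08 in WT (adjusted p = 0.44). Their median was -0.04, and 0.09 after median centring. Without WT replicate 2, KO replicate 1 or KO replicate 2, 0 were higher at that p, and without WT replicate 1, 2 were.

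Ctnnal1 encodes alpha-catulin, a relative of alpha-catenin, and a reporter placed in this gene marks HSCs in mouse marrow. It was at 5.25 and 5.07 in KO and at 5.23 and 5.09 in WT. The groups overlapped fully, with both WT arrays between the KO arrays. The difference was -0.01 ± 0.18 (SE, 95% interval -0.44 to 0.42, limma adjusted p = 0.99), and its sign changed under both other scalings and without WT replicate 1 or KO replicate 2. Of 7 measured catenin and vinculin genes, 7 had a lower mean in KO, 5 after quantile normalization and 4 after median centring. At an unadjusted p under 0.05, 1 was lower and 0 higher, and limma called 0 over all genes. The 1 was Jup, for plakoglobin of desmosomes and adherens junctions, at 3.89 and 3.80 in KO against 4.64 and 4.19 in WT (adjusted p = 0.23). That count was 0 without WT replicate 1, KO replicate 1 or KO replicate 2, and 2 without WT replicate 2. Vcl, for vinculin, was at 6.68 and 6.51 in KO and 7.02 and 6.77 in WT (adjusted p = 0.47).

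Ptpn21 encodes a tyrosine phosphatase with a FERM domain, which ties it to the membrane and the actin skeleton, and in mice it is known to help retain HSCs in the marrow. It was at 5.47 and 5.10 in KO, against 6.06 and 5.74 in WT. The groups did not overlap, and the arrays differed within each group to a like extent, by 0.38 in KO and 0.31 in WT. The difference was -0.61 ± 0.22 (SE, 95% interval -1.14 to -0.09, limma unadjusted p = 0.027, adjusted p = 0.22). With each array left out in turn it ran from -0.80 to -0.43. Of 4 other phosphatases with a FERM domain, 1 lower and 1 higher had an unadjusted p under 0.05, and limma called 0 over all genes. Ptpn3 was at 5.65 and 5.51 in KO against 6.24 and 5.98 in WT, a difference of -0.53 ± 0.19 (SE, adjusted p = 0.22). Ptpn14, known as a partner of the Hippo pathway factor YAP, was at 5.24 and 5.28 in KO against 4.64 and 4.47 in WT, a difference of 0.71 ± 0.17 (SE, adjusted p = 0.13). Without KO replicate 1 or KO replicate 2, 0 of the 4 were lower at that p.

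**Figure D3:**
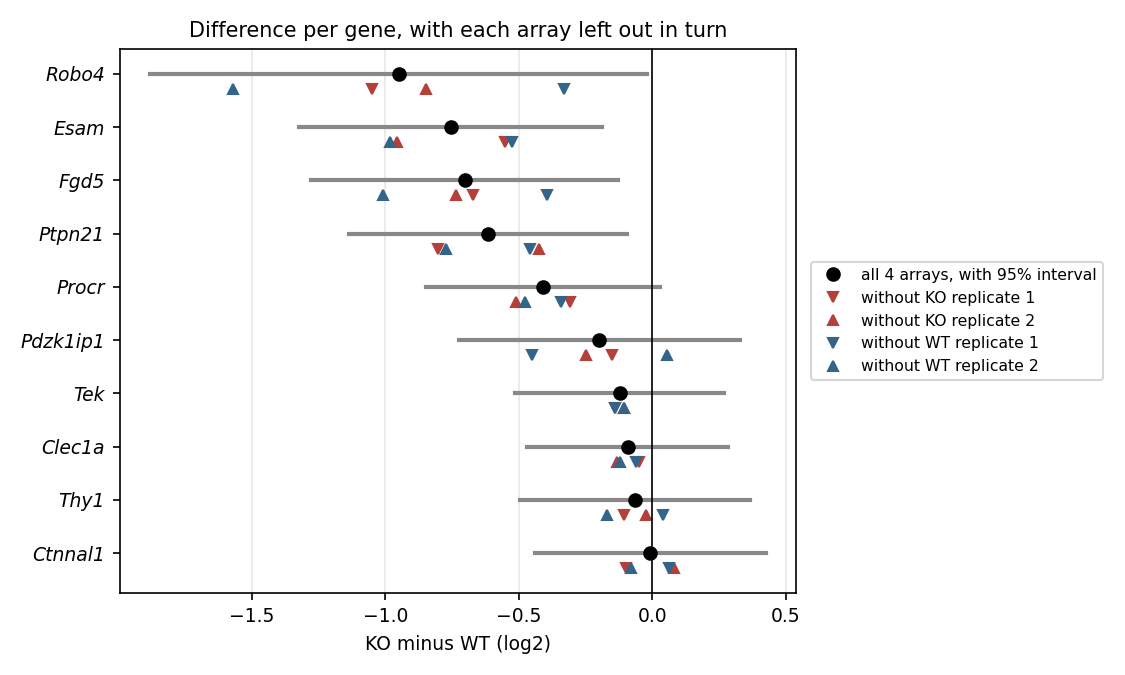
KO minus WT difference of each gene on the log2 scale (black points, all 4 arrays) with its 95% interval (grey lines) and the difference with each array left out (triangles). The intervals of Robo4, Esam, Fgd5 and Ptpn21 lie below 0, and without WT replicate 1 Robo4 is at -0.33.

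The WT arrays took a like order across most of the 10 genes. WT replicate 1 was above WT replicate 2 for 8 of the 10, where this held for 46.6% of all genes and for 59.2% of genes no dimmer than the median gene. WT replicate 1 was the highest of the 4 arrays for 7 of the 10, where this held for 27.0% of all genes. The exceptions to the first count were Tek, by -0.03, and Pdzk1ip1, by -0.51. The KO arrays differed by between 0.03 and 0.40 for these genes. The labels and files used here give no scan date or RNA quality for the arrays, so the source of this order was not tested. Kit, the sort marker c-Kit, showed the same order, at 9.43 and 9.34 in KO against 10.33 and 9.65 in WT, a difference of -0.60 ± 0.23 (SE, limma unadjusted p = 0.038, adjusted p = 0.25).

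Esam, with the smallest p of the 10, was also set against all other genes for likeness over the 4 arrays. By the distance between values centred per gene, the nearest were Ahnak at 0.081, Spata2l at 0.084 and Mir383 at 0.091 on the log2 scale. Their differences were -0.73, -0.77 and -0.69. With 4 arrays and 22180 genes such likeness is only a description.

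Other surface proteins of HSCs and multipotent progenitors were set beside the 10 genes. Of 14 measured HSC surface genes, 10 had a lower mean in KO, and at an unadjusted p under 0.05, 5 were lower and 0 higher, with 0 called by limma over all genes. Their median was -0.37, beside -0.30 for the 10 genes. Kit, given above as the sort marker, is 1 of the 14 and 1 of the 5. Vldlr, a lipoprotein receptor gene, was at 4.80 and 4.74 in KO against 5.74 and 5.74 in WT, a difference of -0.97 ± 0.17 (SE, adjusted p = 0.077). Adgrg1, for the adhesion receptor GPR56, was at 9.61 and 9.60 in KO against 10.81 and 10.21 in WT (adjusted p = 0.12). The other 4 of the 14 had a higher mean in KO, and are named after their values were seen. Cd9, for a tetraspanin, was 0.36 ± 0.17 higher, Abcg2, for an efflux transporter, 0.32 ± 0.20, Slamf1, for the receptor CD150, 0.18 ± 0.17 and Cd81, for a tetraspanin, 0.09 ± 0.14 (SE, adjusted p between 0.34 and 0.80). Of 5 measured progenitor surface genes, 4 lower and 0 higher had an unadjusted p under 0.05, with 0 called over all genes and a median of -0.65. The other of the 5, Cd48, had a higher mean in KO and is named after its values were seen. Cd48 was at 10.91 and 10.90 in KO and 10.64 and 10.89 in WT (limma adjusted p = 0.66). Flt3, the receptor gene that marks the progenitors next to HSCs and is low in long-term HSCs, was at 7.76 and 7.52 in KO against 9.22 and 8.46 in WT, a difference of -1.21 ± 0.27 (SE, adjusted p = 0.11). Cd34, likewise higher in progenitors than in long-term HSCs of the mouse, was at 10.15 and 10.08 in KO and 10.86 and 10.73 in WT (adjusted p = 0.085). Medians of both lists stayed negative under both other scalings and with each array left out. Without KO replicate 2, 1 of the 14 and 0 of the 5 were lower at that p. After median centring, 2 genes of each list were lower at an unadjusted p under 0.05, where 3.46% of all genes were. In that setting 1 of the 14 was higher at that p. With other arrays left out these counts moved as well.

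**Figure D4:**
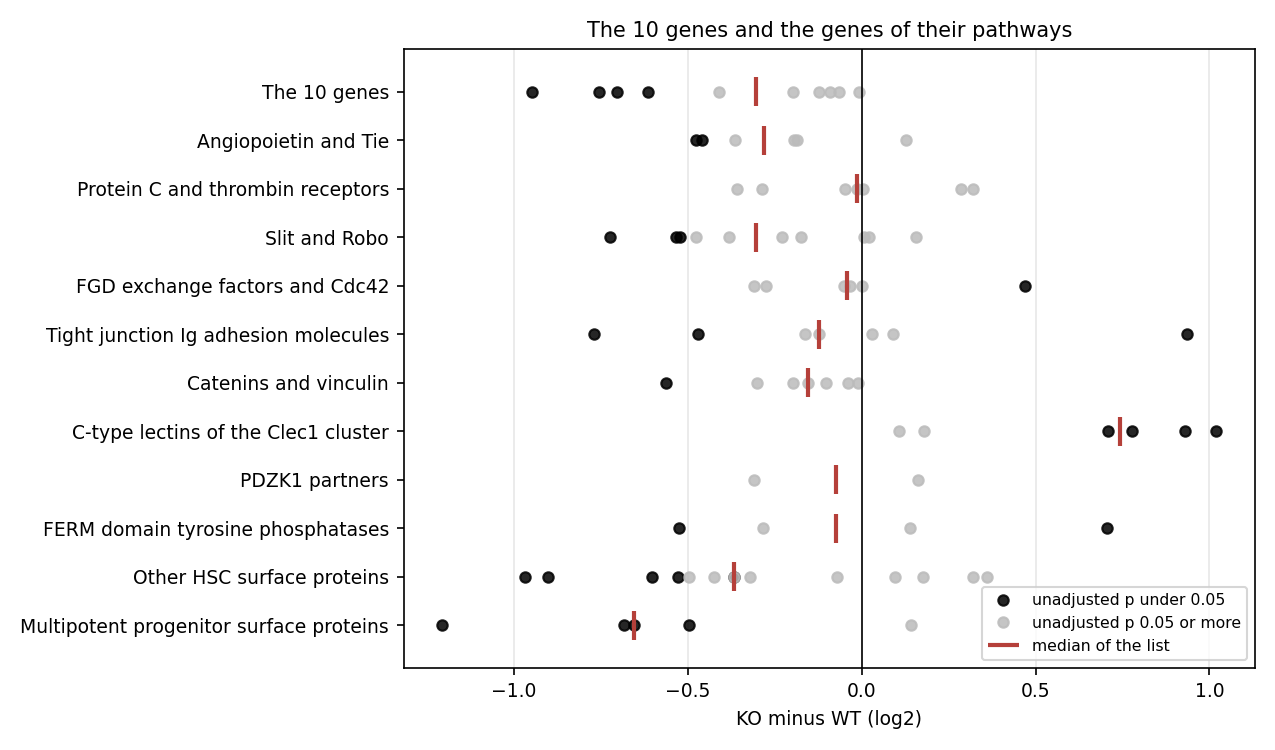
KO minus WT differences on the log2 scale for the 10 genes and for the measured genes of 11 related lists, each point a gene, black where the unadjusted p is under 0.05, with the list's median as a red line. The lectin list has a median of 0.74, and the progenitor surface list a median of -0.65.

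Markers of other cells were measured because endothelium shares several of the 10 genes. Of 10 endothelial markers, 5 had a lower mean in KO and 6 a mean below the median gene, and at an unadjusted p under 0.05, 1 was lower and 0 higher. Their summed values, taken back from the log scale, were 725 and 690 in KO and 792 and 803 in WT. The 1 was Pecam1, also expressed by HSCs, at 8.03 and 7.94 in KO and 8.43 and 8.42 in WT. Egfl7, which is likewise expressed in HSCs, was at 8.12 and 8.14 in KO and 8.16 and 8.04 in WT. The endothelial defining genes Cdh5 and Kdr, picked for mention after their values were seen, were dim, at 4.15 and 4.17 (Cdh5) and 4.24 and 4.29 (Kdr) in KO, and 3.72 and 4.17 (Cdh5) and 3.78 and 4.28 (Kdr) in WT. Cdh5 was 0.21 ± 0.20 and Kdr 0.23 ± 0.21 higher in KO (SE, adjusted p = 0.66 and 0.64). Other endothelial markers had lower means, Emcn at -0.44 ± 0.33, Mmrn2 at -0.29 ± 0.27 and Cldn5 at -0.27 ± 0.17 (SE, adjusted p = 0.55, 0.65 and 0.47). Stab2 was at -0.04 ± 0.16 (SE, adjusted p = 0.93). Vwf at 0.36 ± 0.18 and Plvap at 0.18 ± 0.22 had higher means (SE, adjusted p = 0.39 and 0.73). These markers too are named after their values were seen. Of 5 erythroblast markers, 3 rose and 0 fell over all genes, with Ermap at 7.58 and 7.56 in KO and 4.02 and 3.19 in WT (adjusted p = 0.0090) and Tspan33 at 6.51 and 6.27 in KO and 5.03 and 5.09 in WT (adjusted p = 0.0497). At an unadjusted p under 0.05, 1 of the 5 was lower. It was Slc4a1, for the anion exchanger of the red cell membrane, named after its value was seen, with both KO arrays below both WT arrays and a difference of -0.96 ± 0.24 (SE, adjusted p = 0.13). The summed erythroblast values were 461 and 450 in KO and 84.3 and 87.5 in WT. The summed neutrophil values were 7912 and 7937 in KO and 7335 and 5696 in WT. Mpo was at 12.04 and 12.02 in KO and 12.16 and 11.79 in WT, and Elane at 11.61 and 11.64 in KO and 11.33 and 10.86 in WT. Both genes are also expressed by early myeloid progenitors. Megakaryocyte and platelet markers summed to 445 and 451 in KO and 279 and 336 in WT, with Pf4 at 7.65 and 7.66 in KO and 6.01 and 6.76 in WT (adjusted p = 0.099) and Gp9 at 6.71 and 6.68 in KO and 6.30 and 6.77 in WT. Of these 6 measured markers, 4 had a higher and 2 a lower mean in KO, with a median difference of 0.14. Stromal markers summed to 162 and 173 in KO and 406 and 277 in WT, and 6 of 8 were below the median gene. Pdgfrb, the brightest of the 8, weighed most in these sums. Of the 8, 5 had a lower and 3 a higher mean in KO, and their median difference was -0.04. At an unadjusted p under 0.05, 2 were lower (Pdgfrb and Pdgfra) and 0 higher, with 0 called by limma over all genes. Pdgfra, named after its values were seen, was dim, at 2.49 and 2.53 in KO and 3.11 and 3.09 in WT (adjusted p = 0.13). Pdgfrb was at 6.46 and 6.48 in KO and 8.37 and 7.59 in WT (adjusted p = 0.079), while the collagen gene Col1a2 was at 4.64 and 4.57 in KO and 4.40 and 4.59 in WT. The part of these other cells in the lower values of the 10 genes was not tested.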

How the data were processed

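Expression was measured on Affymetrix arrays in 2 KO and 2 WT samples. The authors deposited log2 values for 41345 probe sets. Per the submitters' processing notes, RMA and Affymetrix Expression Console 1.2.1 were used. No source used here states their settings, the filters or the build of the genome. RMA compresses changes of dim probe sets. No scanner files or detection calls were used, and the precision is limited by 2 arrays per group.

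Of the probe sets, 23521 carried 1 gene symbol, 1814 several, and 16010 were unlisted in the platform annotation given. Each gene was represented by its single-gene probe set with the highest mean, giving 22180 genes, unfiltered. Differences were tested with limma 3.58.1 in R 4.3.3, using empirical Bayes with an intensity trend and two-sided p-values. The threshold was 0.05 after Benjamini-Hochberg adjustment over every gene tested. SE is the moderated standard error. The fit was also run on simulated data, with normal noise and planted shifts larger than the differences of the 10 genes. That run does not bear on differences of their size. The 10 genes, the gene lists and the tests were chosen with earlier results of these data known. From each pathway list the 2 genes of smallest p were named, and from each marker list the 2 with the highest mean, with few exceptions stated as such or left out. Alternatives were the replicate number as a block, other probe set summaries, a level filter, 2 other scalings, no trend, and each array left out.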

Additional observations from a re-analysis of the deposited data

How the results depend on the processing

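The number of genes called over all genes was 113, and it was 27 with all probe sets tested one by one, 289 with dim genes (below the median gene) left out, 189 after quantile normalization, 362 after median centring, and 0 to 3002 with each array left out in turn (0 without either KO array, where limma had 634 and 936 genes lower at an unadjusted p under 0.05). The number of the 10 genes lower at an unadjusted p under 0.05 was 4, against 1 after median centring and 0 to 5 with each array left out. Without WT replicate 2 the differences of Fgd5 and Robo4 were -1.01 and -1.57. Without WT replicate 1 they were -0.40 and -0.33. The share of all genes lower at an unadjusted p under 0.05 also changed from setting to setting. A fit without an array assumes that the lone array varies like the other group. Of 118 single-gene values under these alternatives, 106 kept the reported direction and 12 did not. With 1 probe set per gene, the block, the probe set summaries, the level filter and the trend leave a difference as it was. Those values could not change direction, and all 12 changes of direction came from the other scalings or a left-out array. After quantile normalization the differences were 0.013 for Tek, 0.094 for Ctnnal1, 0.026 for Clec1a and 0.030 for Thy1, and after median centring 0.011, 0.126, 0.042 and 0.069. With each array left out Ctnnal1 ran from -0.098 to 0.084, Thy1 from -0.17 to 0.040 and Pdzk1ip1 from -0.45 to 0.054. The cause was not tested. The median over the 10 genes kept its sign in all these settings. With 2 samples per group the shared replicate numbers are not known to pair the samples. The correlation of same-numbered deviations was 0.113 across genes, and with the replicate number as a block 111 genes were called and 4 of the 10 were lower at an unadjusted p under 0.05. No scanner signal over background was used, so no limit of detection could be set for dim genes such as Clec1a.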
